A study of Mus musculus with 2 samples.

Results

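The genes described here are the D-type cyclins Ccnd1, Ccnd2 and Ccnd3, the E-type cyclins Ccne1 and Ccne2, the kinases Cdk4 and Cdk6, and the CDK inhibitors Cdkn1b, Cdkn2a and Cdkn2c. They were taken by symbol, and all 10 are among the 24421 genes listed for each library. RNA was sequenced from Th1 cells, the helper T cell type known for making IFNγ, and the files analysed here hold 1 library labelled WT (Chi3l1+/+) and 1 library labelled KO (Chi3l1-/-). Both are on the C57BL/6J background, and the KO mice lack Chi3l1 in all cells and not in T cells alone. For both, naive CD4 T cells were stimulated through CD3 and CD28 with IL-12, IL-2 and an antibody against IL-4. The study used young adult mice and cultures of differing length, and the sources used here do not say which length was sequenced or how many animals a library holds.

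In mammalian cells, the D-type cyclins bind Cdk4 or Cdk6 early in G1, and these kinases begin to phosphorylate the retinoblastoma protein. E-type cyclins with Cdk2 complete this step, which frees E2F factors to switch on the genes of DNA replication. The INK4 inhibitors, among them a product of Cdkn2a and that of Cdkn2c, bind Cdk4 and Cdk6. The Cdkn1b product (Kip1) holds cyclin E and Cdk2 in check. In T cells, receptor signals and IL-2 are known to raise D-type cyclins and to lower Kip1, so that resting cells enter division.

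Each deposited value was taken as the log2 of a normalized read count plus 1, a unit inferred from the values. The reads rebuilt from these values summed to 70638495 in the library labelled WT and 62991545 in the library labelled KO. T cell markers were high in both, with 5 of 6 listed and a summed normalized count of 158196 in WT and 151502 in KO. Chi3l1 itself, listed as Chil1, went against the labels, with 1 read in the library labelled WT and 103 in the library labelled KO. Which exons these reads cover cannot be seen from a value per gene, so every direction given here is between libraries named by their labels. With 1 library per genotype no difference has a replicate check and no p-value is given. Intervals are exact 95% intervals of read counts, and they cover counting error only.

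The upstream stretches of 3 members are shown because a searched motif was found in them. The motifs are the E-box, the site of Myc and related factors, and an E2F site. The sequences are from RefSeq (GRCm38.p6), where 7 of the 10 genes had a window, and the 250 bases before each annotated start were searched. Ccnd1, Ccnd2 and Ccne2 had no window and were not searched. Capitals mark the E-box CACGTG in the Cdk4 and Cdk6 stretches and the E2F motif in the Cdkn2a stretch, each 5′ to 3′ on the strand of the gene.
Cdk4, chr10:127063285-127063534, plus strand: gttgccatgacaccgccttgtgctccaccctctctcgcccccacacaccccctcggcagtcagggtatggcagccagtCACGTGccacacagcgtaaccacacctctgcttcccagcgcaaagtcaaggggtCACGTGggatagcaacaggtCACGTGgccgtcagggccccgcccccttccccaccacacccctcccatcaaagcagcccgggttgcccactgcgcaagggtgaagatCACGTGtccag
Cdk6, chr5:3343653-3343698, plus strand: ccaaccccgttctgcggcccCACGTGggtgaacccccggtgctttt
Cdkn2a, chr4:89294691-89294738, minus strand: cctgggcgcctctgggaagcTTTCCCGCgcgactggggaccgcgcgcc

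Upstream of Cdk4 the E-box stood 4 times, beginning 172, 118, 98 and 11 bases before the start. Upstream of Cdk6 it stood once, 220 bases before the RefSeq start. That start lies within the Cdk6 span given further on, which is from another annotation (GENCODE M21). The E-box was found in 6.02% of all 32851 RefSeq windows, and 4 or more copies were found in 7 windows of 5 genes (0.0213% of windows). Counted per gene, it was held by 2 of the 7 members with a window and by 6.86% of all genes with a window. Among the 6776 genes with a window that reached 8 on the log2 scale in each library, the share was 10.9%. The E2F motif was searched as TTTCCCGC, TTTCGCGC, TTTGCCGC or TTTGGCGC on either strand. Among the 7 members with a window it was met once, 99 bases before the more upstream of 2 starts of Cdkn2a and not before the other. It was held by 1.86% of all windows and, counted per gene, by 2.16% of all genes with a window. Of the E2F target genes listed further on, 6 of the 17 with a window held this motif. Among all genes with a window that reached 8 on the log2 scale in each library, 4.41% held it. The letters describe these windows and say nothing of binding in the cells sequenced.

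The cells held D-type cyclin transcripts mostly as Ccnd3, with Ccnd2 at a lower level and Ccnd1 far below both. Ccnd3 (chromosome 17, 47505051 to 47599691, GRCm38) had a log2 value of 17.46 in WT and 16.82 in KO, a normalized count of 180044 and 115777. It was lower in the library labelled KO by a log2 fold change of -0.64 (interval -0.65 to -0.63), which is 1.56-fold. Of the 109 genes with a mean log2 value of 16 to 18, 4.6% had a more negative change. Cyclin D3 is the D-type cyclin known for its part in the expansion of developing T cells.

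Ccnd2 (chromosome 6, 127125162 to 127152193), the cyclin known to follow T cell receptor and cytokine signals, had a log2 value of 14.03 in WT and 14.16 in KO. Its log2 fold change was 0.13 (0.10 to 0.16), opposite in sign to that of Ccnd3. The central 95% of the 583 genes of its level (log2 14 to 16) ran from -0.73 to 0.42, so a change of this size lay within their spread. Other scalings of the libraries gave Ccnd2 a log2 fold change of up to 0.27 (totals without Rn45s, the ribosomal RNA precursor). Per kilobase of the longest annotated transcript, Ccnd3 made up 94.6% of the summed D-type cyclin level in WT and 91.2% in KO, and Ccnd2 5.37% and 8.78%.

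Ccnd1 (chromosome 7, 144929931 to 144939925), the D-type cyclin of many tissues outside the lymphoid lineage, had 66 reads in WT and 31 in KO. The log2 values were 6.02 and 4.95, and the log2 fold change was -1.07 (-1.76 to -0.46). It was the member lower by at least 2-fold, while 5.81% of all genes listed were that much lower and 13.6% of genes with a mean log2 value of 4 to 6. Scaled to Actb the value was -0.96, and with totals taken without Rn45s it was -0.93, both short of 2-fold. In bulk RNA, fewer cells that make a transcript and less of it per cell cannot be told apart. The neutrophil list (S100a8, S100a9, Elane, Mpo, Ltf and Camp) moved the same way, with a summed normalized count of 58.9 in WT and 4.8 in KO, 5 of 6 genes lower, and Camp at 0 in both. The macrophage list was at 529 and 488, with Adgre1 at 0 in both, but its genes moved in opposite ways, with Lyz2 at 34 reads in WT and 2 in KO, Cd14 at 12 and 0, Cd68 at 402 and 300, Csf1r at 97 and 174, and Mrc1 at 0 and 29. The fibroblast list was at 144 and 102, with Col1a2, Col3a1, Dcn and Pdgfra at 0 in both. The part of these cells in the Ccnd1 value was not tested.

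**Figure D1:**
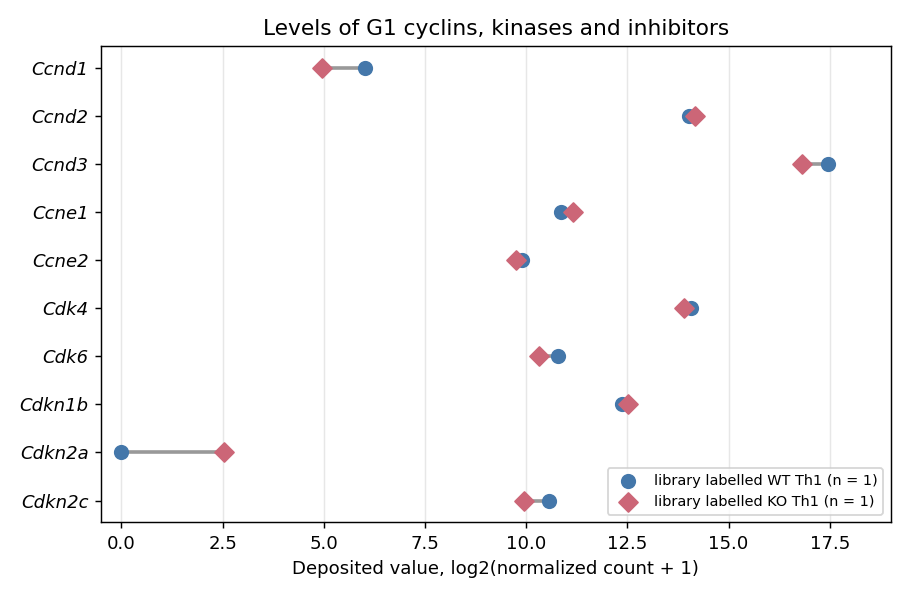
Deposited log2 values of the 10 genes (horizontal axis, log2 of normalized count plus 1) in the library labelled WT Th1 (circles) and the library labelled KO Th1 (diamonds), 1 library each. Ccnd3 is highest in both, at 17.46 and 16.82, while Ccnd1 is at 6.02 and 4.95 and Cdkn2a at 0 and 2.54. Values are not divided by transcript length.

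The E-type cyclins differed in opposite directions. Ccne1 (chromosome 7, 38097984 to 38107534) had 1928 reads in WT and 2375 in KO, with log2 values of 10.87 and 11.17. Its log2 fold change of 0.30 (0.21 to 0.39) was the most positive among the 8 members that reached a log2 value of 8 in both libraries. Ccne2 (chromosome 4, 11191351 to 11204779) had 985 and 885 reads, log2 values of 9.90 and 9.74, and a log2 fold change of -0.16 (-0.29 to -0.03), which came to -0.04 when scaled to Actb and -0.02 with totals taken without Rn45s. Both cyclins activate Cdk2, and both genes are known E2F targets. Per kilobase, Ccne1 was 74.6% of the summed E-type cyclin level in WT and 80.1% in KO.

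Ccne2 shares 609 exonic bases with Ints8, a gene of the Integrator complex on the opposite strand. Ints8 was higher in the library labelled KO, at a log2 fold change of 0.53, the reverse of Ccne2. Similar overlaps were found for Cdk4 with Tspan31 (641 bases, Tspan31 at -0.27), for Ccnd3 with Bysl (361 bases, Bysl at -0.12) and for Ccnd2 with 9330179D12Rik (368 bases, at 0.02). Ccnd1 shares 1100 bases with the gene listed as Oraov1, which had 67 and 65 reads. Whether strand was used in counting is not stated in the sources used here, so reads of these shared bases cannot be assigned with certainty.

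Cdk4 was the main G1 kinase transcript in both libraries, and Cdk6 differed more between them. Cdk4 (chromosome 10, 127063534 to 127067920) had a log2 value of 14.08 in WT and 13.89 in KO, with a log2 fold change of -0.19 (-0.22 to -0.16) that came to -0.06 under quantile normalization and -0.05 with totals taken without Rn45s. Cdk6 (chromosome 5, 3341485 to 3531008) had 1834 reads in WT and 1327 in KO, log2 values of 10.80 and 10.33, and a log2 fold change of -0.47 (-0.57 to -0.37). Of the 3390 genes with a mean log2 value of 10 to 12, 9.3% had a more negative change than Cdk6. Per kilobase of the longest transcript, Cdk4 was at a normalized count of 8412 in WT and 7379 in KO, and Cdk6 at 154 and 111. The longest Cdk6 transcript has 11525 bases and its shortest CCDS transcript 2470, and with the latter Cdk6 was at 719 and 520. Cdk4 stayed the more abundant of the pair with either length. Beside the E-boxes shown above, Myc itself had a log2 value of 17.23 in WT and 17.11 in KO (log2 fold change -0.12).

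Of the inhibitors, Cdkn1b and Cdkn2c were well expressed and Cdkn2a was at or near 0. Cdkn1b (chromosome 6, 134920401 to 134925513), which encodes Kip1, had 5439 reads in WT and 6027 in KO. Its log2 values were 12.36 and 12.51, and the log2 fold change was 0.15 (0.09 to 0.20), or 0.29 with totals taken without Rn45s. Cdkn2c (chromosome 4, 109660876 to 109667189), which encodes an INK4 inhibitor known to restrain T cell division after receptor stimulation, had 1573 reads in WT and 1011 in KO. Its log2 values were 10.58 and 9.93, and its log2 fold change of -0.64 (-0.76 to -0.53) equals 1.56-fold lower in the library labelled KO. Of the genes of its level, 4.0% had a more negative change. In the deposited values Cdkn1b was thus slightly higher and Cdkn2c lower, though Cdkn1b turned negative (-0.05) after the correction for GC content described further on.

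Cdkn2a (chromosome 4, 89274471 to 89294653) had 0 reads in WT and 5 in KO. The gene encodes the INK4 protein of senescent cells and, from a separate first exon, the Arf protein that acts through p53, and 1 value per gene does not separate them. The exact 95% Poisson interval of the 5 reads is 1.62 to 11.7, which overlaps the up to 3 reads that a count of 0 allows in WT, so a difference was not detectable at this depth. The deposited values differ by 2.54 on the log2 scale, which depends on the 1 added inside the log. It was the member higher by at least 2-fold in the deposited values, against 4.7% of all genes listed. The related INK4 gene Cdkn2b had 0 reads in both libraries.

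Of the 8 members that reached a log2 value of 8 in both libraries, 0 were at least 2-fold higher and 0 at least 2-fold lower, against 0.461% and 0.743% of the 8886 genes at this level. At 1.5-fold, a limit joined to this level after the values were seen, 2 of the 8 were lower, namely Ccnd3 and Cdkn2c, and 0 were higher, against 6.29% lower and 3.95% higher among all genes at this level. Both were short of 1.5-fold when scaled to Actb (Ccnd3 -0.52, Cdkn2c -0.53) and with totals taken without Rn45s (-0.50 for each), as did Ccnd3 under quantile normalization (-0.46). Over all 10 members the median log2 fold change was -0.17, with 4 positive and 6 negative, beside a median of 0.00 over all genes listed. Over the 8 well-expressed members the median was also -0.17, beside -0.01 over all genes at this level. By mean log2 value, the median of all genes was 0.06 at 8 to 10, 0.02 at 10 to 12 and -0.08 at 12 to 14. At 14 to 16 and at 16 to 18, the levels of Ccnd2 and Ccnd3, it was -0.16. Each of the 8 members lay within the central 95% of genes of its own level.

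**Figure D2:**
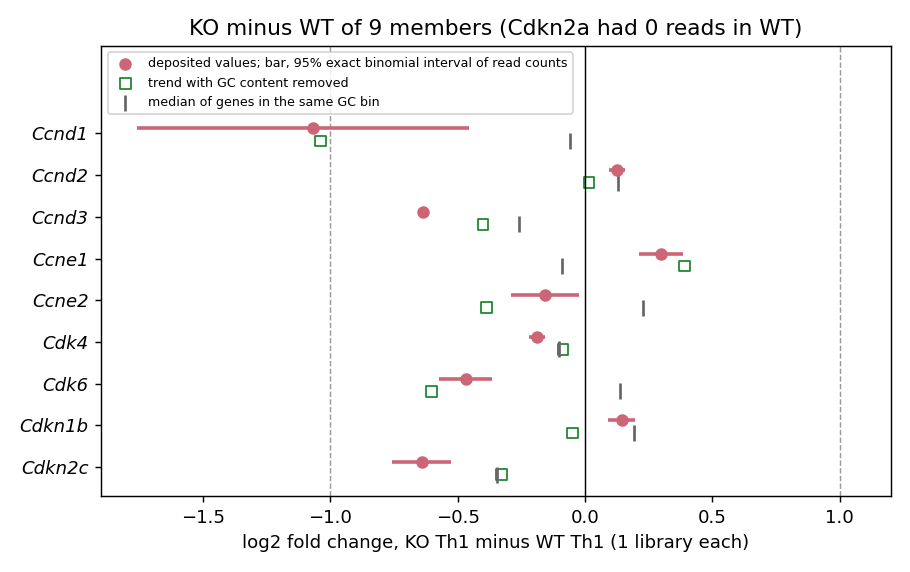
Log2 fold change, library labelled KO minus library labelled WT, of 9 members (Cdkn2a is left out because it had 0 reads in WT). Filled points are the deposited values with exact 95% intervals of read counts, open squares the values after the trend with GC content was removed, and vertical ticks the median of genes in the same GC bin. Dashed lines mark 2-fold. Ccnd1 lies past the left line at -1.07, and Ccnd3 and Cdkn2c lie at -0.64.

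Over all well-expressed genes the log2 fold change varied with the GC content of the transcript, and several members sat close to the median of their GC bin. Among the genes at 8 or more in both libraries with a transcript (8579), the bin of lowest GC content had a median log2 fold change of 0.23 and the bin of highest -0.45. Ccnd3 has a GC content of 56.7% and Cdkn2c of 58.0%, and the medians of their bins were -0.26 and -0.35. With the trend removed, Ccnd3 had -0.40 and Cdkn2c -0.33. Cdk6, with a GC content of 45.1%, was lower in the library labelled KO although the median of its bin was 0.14, and its value became -0.60. Ccne2, the most AT-rich member at 36.3%, went from -0.16 to -0.39, and Ccne1 from 0.30 to 0.39. Ccnd2 and Cdkn1b, whose bins had medians of 0.13 and 0.19, came to 0.02 and -0.05, so that Cdkn1b changed sign. After this step 1 of the 8 members, Cdk6, was lower by at least 1.5-fold and 0 were higher, against 3.22% lower and 2.84% higher among all genes at this level. GC content was read from GENCODE M21, and the cause of the trend was not tested.

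**Figure D3:**
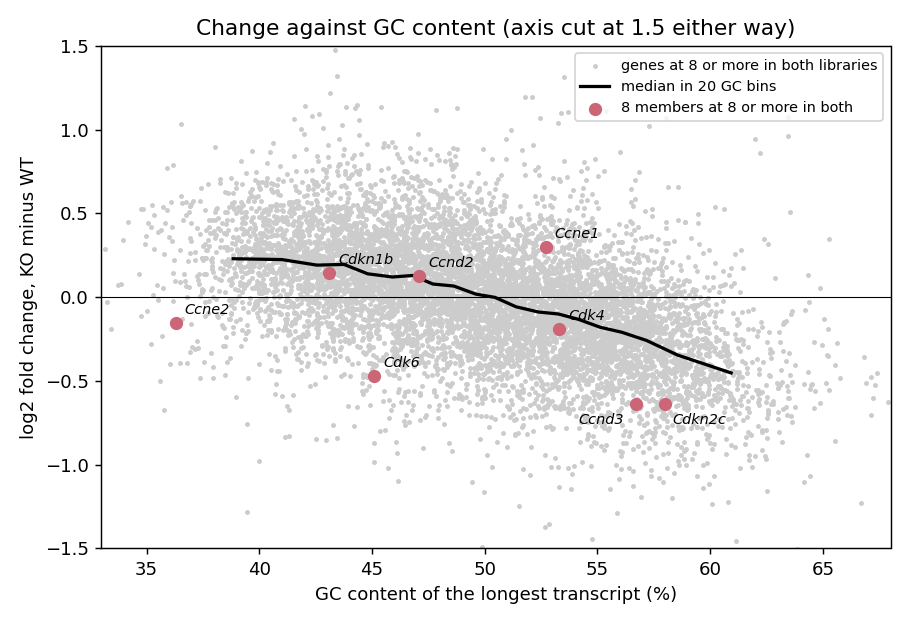
Log2 fold change (library labelled KO minus WT) against GC content of the longest transcript, in percent, for genes that reached 8 on the log2 scale in both libraries (grey), with the 8 members at this level named and the median in 20 GC bins as a line. Axes are cut at 1.5 either way and at the ends of the GC range. Ccnd2, Cdkn1b and Cdk4 lie close to the line, Cdk6, Ccne2, Ccnd3 and Cdkn2c below it and Ccne1 above it.

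A ratio of 2 genes within a library does not depend on a common factor that scales one library to the other. The ratio of Ccnd3 to Ccnd2 normalized counts was 10.7 in WT and 6.33 in KO, a log2 difference of -0.76 (-0.80 to -0.73). The ratio of Ccne1 to Ccne2 was 1.96 in WT and 2.68 in KO, a log2 difference of 0.46 (0.30 to 0.62). Cdk4 exceeded Cdk6 by 9.72 to 1 in WT and 11.8 to 1 in KO, a log2 difference of 0.28 (0.17 to 0.39). Cdkn2c stood at 0.289 of Cdkn1b in WT and 0.168 in KO, a log2 difference of -0.79 (-0.91 to -0.66). All 4 ratios differed between the libraries by more than counting error, and the spread between cultures is unknown. With the GC trend removed the 4 log2 differences were -0.42, 0.78, 0.52 and -0.28, each of the same sign.

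**Figure D4:**
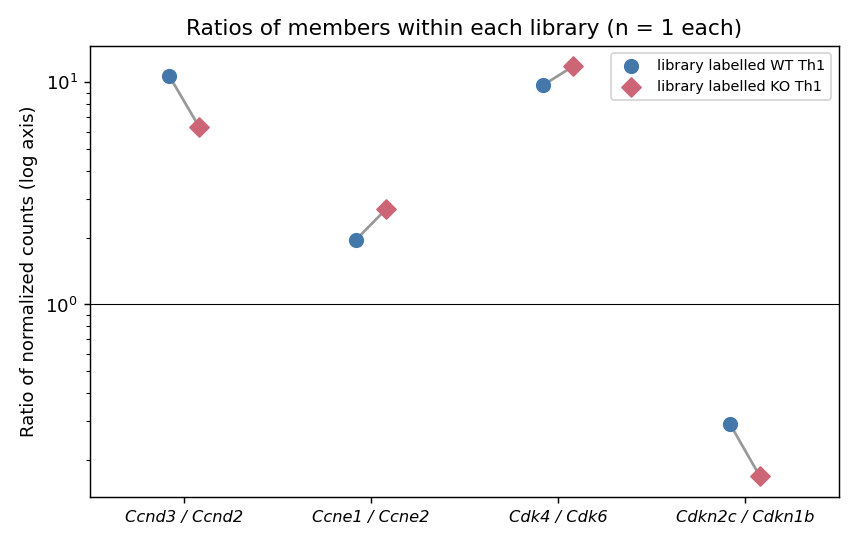
Ratios of normalized counts within each library on a log axis, for 4 pairs of members in the library labelled WT Th1 (circles) and the library labelled KO Th1 (diamonds). Ccnd3 to Ccnd2 goes from 10.7 to 6.33 and Cdkn2c to Cdkn1b from 0.289 to 0.168, while Ccne1 to Ccne2 and Cdk4 to Cdk6 are higher in the library labelled KO.

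Per kilobase of the longest transcript, the members stood in the same order in both libraries. Ccnd3 was first at a normalized count per kilobase of 46668 in WT and 30010 in KO, followed by Cdk4, by Ccnd2 at 2648 and 2890, and by Cdkn1b at 1158 and 1280. Below these stood Ccne1 at 934 and 1148, Cdkn2c at 617 and 395, Ccne2 at 318 and 285, and Cdk6, with Ccnd1 at 17.1 and 8.0 and Cdkn2a last. With the shortest CCDS transcript in place of the longest, Cdkn1b stood above Ccnd2 and Cdk6 above Ccne2 in both libraries, and Cdkn2c was above Ccne1 in WT and below it in KO. The order of these neighbours therefore rests on the transcript length used, and no replicate spread is known for any of them.

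The partners of these genes in the G1/S pathway were compared as a list of 31, all listed in both libraries. At least 2-fold, 0 were higher and 1 was lower, against 4.7% and 5.81% of all genes listed. The 1 lower was Cdkn1c, an inhibitor related to Cdkn1b, with 31 reads in WT and 7 in KO. Of the 1442 genes with a mean log2 value of 2 to 4, as for Cdkn1c, 11.1% had a more negative change. Of the 25 at 8 or more in both libraries, 13 were positive and 12 negative, with a median of 0.08 that became -0.04 with the GC trend removed. Cdk2, the kinase of the E-type cyclins, had a log2 fold change of -0.29 (13.86 in WT and 13.57 in KO), and Ccna2, its S-phase cyclin, 0.08. Rb1, the substrate of both kinase steps, had -0.10. With the GC trend removed, Cdk2, Ccna2 and Rb1 had -0.352, -0.045 and -0.323, so that Ccna2 changed sign. E2f1 had the most negative value among the well-expressed genes of the list, at 12.77 in WT and 12.01 in KO (log2 fold change -0.77, interval -0.82 to -0.71), and E2f4 the next, at -0.58. Both are GC-rich, and with the trend removed they had -0.43 and -0.37. At the other end stood Cdk7, the kinase that activates other CDKs, at 0.80, and Tfdp2, a partner of E2F factors, at 0.44. Among inhibitors that are not members, Cdkn1a, a p53 target, was at 13.54 in WT and 13.93 in KO (log2 fold change 0.39). Cdkn2d was at 10.99 and 10.96 (-0.02). With the GC trend removed, Cdkn1a had 0.54 and Cdkn2d 0.18.

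**Figure D5:**
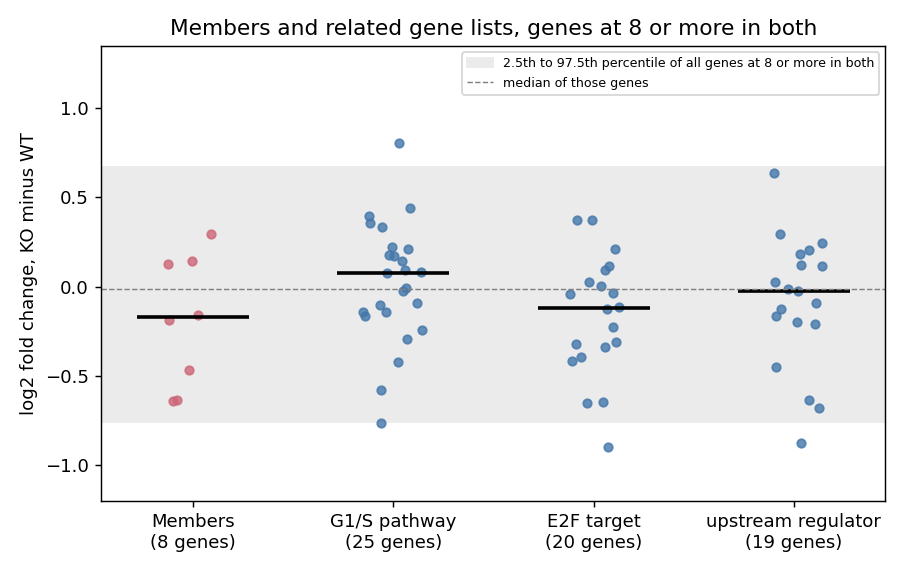
Log2 fold change, library labelled KO minus WT, of the 8 members and of the genes of 3 related lists that reached 8 on the log2 scale in both libraries. Each point is a gene, its sideways place has no meaning, bars are list medians, the shaded band is the central 95% of all genes at this level (-0.76 to 0.67), and the dashed line is their median. The medians are -0.17, 0.08, -0.12 and -0.03 from left to right.

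Genes of DNA replication that E2F switches on were compared as a list of 20, all at 8 or more in both libraries. Of these, 0 were past 2-fold, against 0.461% higher and 0.743% lower among all genes at this level. Within the list 7 were positive and 13 negative. The median was -0.12, which became 0.02 with totals taken without Rn45s and -0.15 with the GC trend removed. Mcm6, a subunit of the replicative helicase, had -0.90 (13.91 in WT and 13.01 in KO), and Ung, which removes uracil from DNA, had -0.65. Pcna, the sliding clamp of DNA polymerase, had 0.38 and Cdc45, a helicase partner, 0.37. With the GC trend removed, 2 of the list (Cdc45 at 0.34 and Pcna at 0.25) were positive and 18 negative, beside 4294 positive and 4284 negative among all genes at 8 or more in both libraries. Mcm6 was then at -1.002, past 2-fold, and Ung at -0.72. The list of 20 regulators upstream of G1 had 0 genes past 2-fold, against 4.7% higher and 5.81% lower among all genes listed. It had 8 positive and 12 negative, with a median of -0.06 that became 0.06 when scaled to Actb. Klf2, a factor of quiescent T cells, had -0.88, and Nfatc1, a factor activated by calcium signals, -0.68. Mdm2, which restrains p53, had 0.64 and Mxd1, an antagonist of Myc, 0.29. With the GC trend removed these 4 had -0.42, -0.57, 0.52 and 0.30.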

How the data were processed

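The authors made libraries from polyadenylated RNA, mapped paired reads with TopHat and compared counts of unique and multiple alignments in edgeR. They also name cufflinks, expression levels in FPKM (a unit per kilobase of exon) and a global normalization. FPKM differs from the unit inferred here for the deposited values. Per the labels the build was mm10. The annotation and counter are not given in the sources used here. Each deposited value was taken to be a log2 normalized count with 1 added before the log, a unit inferred from the values, since 99.97% (WT) and 99.83% (KO) of normalized counts under 40 lay within 0.1 of a whole read once divided by the worth of 1 read (0.969 and 0.967).

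Reads were rebuilt with these steps. Because multiple alignments were counted, reads can be shared between near-identical genes. The log2 fold change is the value in the library labelled KO minus that in WT, with an exact binomial (Clopper-Pearson) 95% interval. Ratios have exact conditional intervals. The GC trend was the median in 20 bins, interpolated. Coordinates, lengths and GC content were taken from GENCODE M21 (GRCm38), where 96.5% of genes that reached 8 on the log2 scale in both libraries had a transcript. The members and lists were chosen with earlier results of these data known. Named genes are the members, a fixed set of partners, and from each list the 2 highest and 2 lowest values among genes at 8 or more in either library and any past 2-fold. Cdkn1c, the genes that overlap members, the cell markers and the genes given only among the other observations are named outside this rule. No gene of like pattern is named, since 2 libraries give 1 difference per gene. A further cell marker list is not reported here. Alternatives were a pseudocount of 0.1 or none, 4 scalings, removal of the GC trend, thresholds of 1.5-fold and 3-fold and filters on low values. Scripts were tested on simulated data. Values were computed in Python 3.11.15 with scipy 1.17.1, pandas 2.3.3 and numpy 2.4.6, and drawn with matplotlib 3.10.9.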

Additional observations from a re-analysis of the deposited data

How the results depend on the processing

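No paired analysis was possible because each genotype has 1 library and no test was made. The sign of all 10 member fold changes held under the pseudocounts and the 4 scalings (Cdkn2a has no value without a pseudocount), and with the GC trend removed Cdkn1b alone changed sign, to -0.05. Scaling to Actb moved the median of genes at 8 or more in both libraries from -0.01 to 0.11, and totals without Rn45s moved it to 0.13. Under these 2 scalings the median of the members was -0.057 and -0.032, that of the G1/S list 0.084 and 0.110, that of the E2F targets -0.004 and 0.022, and that of the upstream regulators 0.057 and 0.083. Under quantile normalization the E2F targets had -0.019 and the upstream regulators 0.055. The count of members at least 2-fold higher was 0 without a pseudocount and under each filter (1 or 8 in both libraries, and 8 with 1.5-fold). The count at least 2-fold lower was 0 with Actb, without Rn45s, at 3-fold and with the filter at 8, it was 3 at 1.5-fold, and it was 2 at 1.5-fold with the filter at 8, an alternative chosen after seeing the data, as was the shorter transcript length. For the within-library ratios, the log2 difference under quantile normalization was -0.72 for Ccnd3 to Ccnd2 and 0.41 for Cdk4 to Cdk6, and with the GC trend removed it was -0.42, 0.78 for Ccne1 to Ccne2, 0.52 and -0.28 for Cdkn2c to Cdkn1b. The cause was not tested. Depth limits Ccnd1 and Cdkn2a, with 66 and 5 reads at most.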

Other observations

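Within the E2F and DP factors, which were picked out after their values were seen, the activators E2f1, E2f2 and E2f3 had log2 fold changes of -0.77, -0.15 and -0.24, and E2f4 and E2f8, which can repress, had -0.58 and -0.43. E2f5 and E2f7, which can also repress, had -0.03 and -0.09. E2f6, another repressor, had 0.34, and the DP partners Tfdp1 and Tfdp2 had 0.22 and 0.44. With the GC trend removed, E2f1, E2f3, E2f4 and E2f8 had -0.43, -0.27, -0.37 and -0.43, E2f6, Tfdp1 and Tfdp2 had 0.30, 0.10 and 0.32, and E2f2 changed sign to 0.09. Of the CDK-activating complex, Cdk7 had 0.80 (393 reads in WT and 687 in KO), its cyclin Ccnh 0.21 and its assembly factor Mnat1 -0.06. The mitotic kinase Cdk1 and its cyclins Ccnb1 and Ccnb2 had 0.36, 0.17 and 0.18. With the GC trend removed, Cdk7, Ccnh and Mnat1 had 0.62, -0.02 and -0.29. Cdk1, Ccnb1 and Ccnb2 then had 0.28, 0.00 and 0.14. These values are from 1 library of each label and have no replicate check.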
